A study of Mus musculus with 9 samples.

Results

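The oxidative phosphorylation genes described here are 81 nuclear genes of the mitochondrial respiratory chain and ATP synthase, out of 28477 gene names on the array. They were chosen by name: every non-control probe whose gene name follows the stems used for complex I (Nduf), complex II (Sdh), complex III (Uqcr), complex IV (Cox4 to Cox8) and complex V (Atp5) was taken, and where a gene had several probes, the brightest by mean signal over the 9 arrays was read. The names held 111 probes. The rule used no difference between groups. Of the 81 genes, 79 passed the filter on dim probes and were tested among 19971 genes, while Cox4i2 and Cox8c did not. Apart from these and Cox8b, every member was well above background on all 9 arrays. The tested genes number 36 for complex I, 4 for complex II, 7 for complex III, 16 for complex IV and 16 for complex V. By their RefSeq names, 3 of them encode no subunit: Ndufa12l is the assembly factor Ndufaf2, Cox4nb is Emc8 of an endoplasmic reticulum complex, and Atp5s is Dmac2l, also called coupling factor B. Ndufa4 carries a complex I name but is known as a subunit bound to complex IV.

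RNA came from epithelial cells sorted from C57BL/6 mice, whose age and sex the labels do not state, in 3 groups of 3 arrays. Kidney cells were freed with collagenase, dispase and DNase and sorted as Epcam-positive, with cells of 4 mice pooled per replicate. Small intestinal cells were released with EDTA and sorted into MHCIIhi, with high surface Epcam and MHC class II, and MHCIIlo, with intermediate surface levels of both, with cells of 3 mice pooled per replicate. All gates excluded cells stained for CD45, the common leukocyte protein, or Fluorogold, and no group carried a mutation or a treatment. Each sample was hybridised to its own single-colour (Cy3) Agilent array. A level is given below as the log2 processed signal minus that array's 75th percentile, so that a difference of 1 between groups is a 2-fold change. It is a value of a single probe and can be compared between samples but not between genes.

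Oxidative phosphorylation takes electrons from NADH at complex I and from succinate at complex II, passes them through ubiquinone, complex III and cytochrome c to oxygen at complex IV, and uses the resulting proton gradient to drive ATP synthase, complex V. Most subunits are encoded in the nucleus, and the rest in mitochondrial DNA. Kidney tubule cells are known for dense mitochondria that supply their sodium transport, and absorptive intestinal cells for mitochondria that supply nutrient uptake.

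The 75th percentile of the processed signal lay between 599 and 770 on the kidney arrays, between 213 and 371 in MHCIIhi and between 100.6 and 185 in MHCIIlo. The kidney arrays shared a slide of their own, so kidney and slide cannot be told apart. MHCIIhi 1 and 2 shared another slide, and MHCIIhi 3 lay with the 3 MHCIIlo arrays. Kidney arrays carried nephron markers and no Sis or Cdx2 signal above background, and the intestinal arrays carried enterocyte markers and no Umod or Calb1 signal above background. Other markers of these lists were above background in the other tissue. On the kidney arrays these were 10 or 11 of 15 enterocyte markers. On the intestinal arrays they were 6 to 8 of 10 proximal tubule, 3 to 5 of 11 collecting duct and 2 or 3 of 9 thick ascending limb and distal tubule markers. Transcripts of MHC class II genes were not higher in MHCIIhi: H2-Ab1 differed from MHCIIlo by -0.55 ± 0.22 (SE, adjusted p = 0.0634), and Cd74, the invariant chain that class II molecules bind, by -1.10 ± 0.23 (SE, adjusted p = 0.00627). Epcam differed by -0.26 ± 0.30 (SE, adjusted p = 0.48). These transcripts did not run in the direction of the gates' names. In sorted bulk samples, fewer cells of a type and less RNA per cell cannot be told apart.

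Kidney cells carried more transcript of most complex I and II genes than MHCIIhi cells, by a median of 0.62 and 0.67 on the log2 scale. MHCIIhi cells carried less of 32 of the genes than MHCIIlo cells, and the median difference of all 79, -0.39, became -0.11 after normexp background correction and 0.01 after quantile normalization. In kidney against MHCIIhi, 37 of the 79 tested genes rose and 1 fell, while 32.2% of all genes tested rose and 31.2% fell. In kidney against MHCIIlo, 25 rose and 18 fell, beside 36.9% and 35.5% of all genes, but quantile normalization turned 13 of those 18 to a positive difference. In MHCIIhi against MHCIIlo, 2 rose and 32 fell, beside 21.6% and 28.5% of all genes. Calls rest on limma over the whole table, with p-values adjusted after Benjamini and Hochberg and a threshold of 0.05. Both genes that rose in MHCIIhi, Ndufa12l and Cox4nb, encode no subunit, and so does the gene that fell in kidney against MHCIIhi, Cox4nb.

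The share of kidney calls depended on how the arrays were scaled. Against MHCIIlo, 45 genes rose and 7 fell after normexp correction, beside 24.5% and 53.3% of all genes. After quantile normalization 68 rose and 3 fell, beside 40% and 34.1% of all genes. Against MHCIIhi, 70 rose after quantile normalization. In MHCIIhi against MHCIIlo the split was 8 higher and 17 lower after normexp, and 9 higher and 14 lower after quantile normalization. With slide as a random block 24 of 34 calls were kept in MHCIIhi against MHCIIlo, 28 of 38 in kidney against MHCIIhi and 33 of 43 in kidney against MHCIIlo. Of the genes described below with their levels it lost Ndufa12l, Cox6a2 and Cox7a2 in the first of these, and Ndufa13, Sdhb, Cox6a2, Cox7b, Cox8a, Atp5b, Atp5g2 and Atp5g3 in the last. With slide as a fixed block, which sets MHCIIhi 3 against the MHCIIlo arrays of its own slide, limma called 0 higher and 0 lower, with 1 and 20 at an unadjusted p below 0.05, and the median difference was -0.30. That fit called few genes of any kind, 7.07% of all genes higher and 1.79% lower, with a median of -0.09 for all genes. The 32 lower calls became 14 without MHCIIhi 1, 21 without MHCIIhi 2 or MHCIIlo 2 and 19 without MHCIIlo 3, and the 2 higher calls became 6 without MHCIIlo 1 and 1 without any of MHCIIhi 1, MHCIIhi 2, MHCIIlo 2 or MHCIIlo 3. The share of all genes called lower fell too, from 28.5% to 15.9%, 14.7%, 15.8% and 17.5% without MHCIIhi 1, MHCIIhi 2, MHCIIlo 2 and MHCIIlo 3. The share called higher was 23.3% without MHCIIlo 1 and 16.1% to 17.6% without those arrays.

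By complex, the kidney calls were uneven with 75th percentile scaling. Against MHCIIhi, 25 of 36 complex I genes and 3 of 4 complex II genes rose, against 2 of 7 in complex III, 2 of 16 in complex IV and 5 of 16 in complex V. Beside these, 32.2% of all genes tested rose, a share near those of complexes III and V and above that of complex IV. The median differences were 0.62, 0.67, 0.21, 0.10 and 0.20 from complex I to V, beside -0.02 for all genes. After quantile normalization the medians of complexes I, IV and V drew closer, at 1.28, 0.96 and 1.08, with 70 of the 79 genes higher. Against MHCIIlo, 18 complex I genes rose and 4 fell, and 2 complex II genes rose. In that comparison 2 complex III genes fell, 1 complex IV gene rose and 5 fell, and 4 complex V genes rose and 7 fell. Of all genes tested 36.9% rose and 35.5% fell. The medians there were 0.42, 0.32, -0.15, -0.28 and -0.32, beside 0.04 for all genes. The negative medians of complexes IV and V turned to 0.09 and 0.19 after normexp and to 0.80 and 0.89 after quantile normalization, where complex I was at 0.87 and 1.34.

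In MHCIIhi against MHCIIlo, 12 of 36 complex I genes fell and 1 rose, 4 of 7 complex III genes fell, 7 of 16 complex IV genes fell and 1 rose, and 9 of 16 complex V genes fell. Beside these, 28.5% of all genes tested fell and 21.6% rose, so the share of complex I genes that fell was near that of all genes. The medians from complex I to V were -0.27, -0.20, -0.48, -0.52 and -0.51, beside -0.24 for all genes. That of complex I turned to 0.03 after normexp and 0.11 after quantile normalization, while those of complexes IV and V stayed below 0, at -0.20 and -0.20 after normexp and -0.09 and -0.22 after quantile normalization. The median of all genes was then -0.50 and -0.07, so that after normexp complexes IV and V lay above it.

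**Figure D1:**
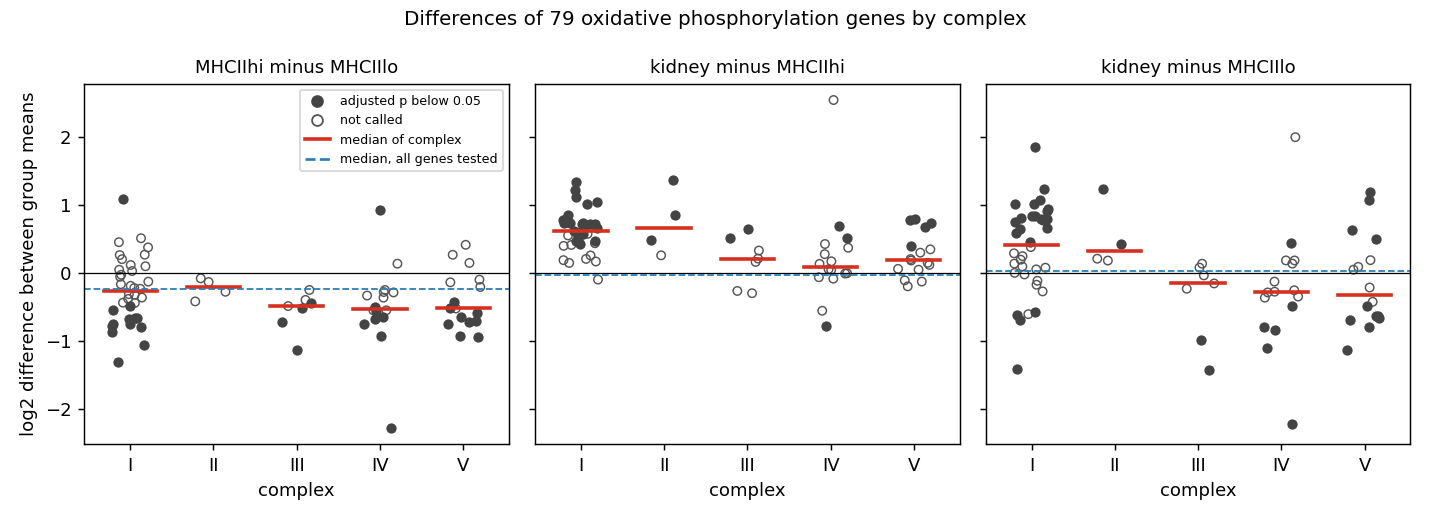
Log2 difference between group means (vertical axis) of the 79 tested genes by complex (horizontal axis) in the 3 comparisons; each point is a gene, filled where the adjusted p is below 0.05, with the median of the complex as a red line and that of all genes tested as a dashed blue line. Complex I sits at 0.62 in kidney minus MHCIIhi and at 0.42 in kidney minus MHCIIlo, while complex V sits at 0.20 and -0.32. After quantile normalization complex I is at 1.28 and 1.34 and complex V at 1.08 and 0.89.

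Complex I opens the chain by oxidising NADH. In its matrix arm, Ndufs1, the largest core subunit with iron-sulphur clusters, had levels of 5.83, 5.59 and 5.70 in kidney, 4.37, 4.62 and 4.50 in MHCIIhi and 4.78, 4.79 and 4.84 in MHCIIlo. All kidney arrays lay above all intestinal arrays, and the intestinal groups did not overlap each other. Kidney rose by 1.21 ± 0.15 (SE, adjusted p = 0.000123) against MHCIIhi and by 0.91 ± 0.15 (SE, adjusted p = 0.000586) against MHCIIlo. A second Ndufs1 probe was not well above background on any array, and the mean of both probes gave -0.59 against MHCIIlo. Ndufv1, which binds NADH and FMN, had levels of 5.92, 5.72 and 5.64 in kidney, 4.94, 5.22 and 5.14 in MHCIIhi and 5.56, 5.69 and 6.01 in MHCIIlo. Its kidney and MHCIIlo arrays overlapped, and both lay above MHCIIhi. It rose by 0.66 ± 0.18 (SE, adjusted p = 0.0115) in kidney against MHCIIhi and fell by 0.65 in MHCIIhi against MHCIIlo (adjusted p = 0.0181).

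Accessory subunits with complex I names followed the same kidney order. Ndufa4, which is bound to complex IV, had levels of 6.34, 5.79 and 5.78 in kidney, 4.62, 4.90 and 4.39 in MHCIIhi and 4.83, 3.98 and 3.56 in MHCIIlo, with kidney above every intestinal array. Its kidney level was 2.52 times that of MHCIIhi and 3.59 times that of MHCIIlo, a log2 difference of 1.33 ± 0.33 (SE, adjusted p = 0.00643) and 1.84 ± 0.33 (SE, adjusted p = 0.000843). The complex I membrane arm subunits Ndufb4, Ndufb8, Ndufb6 and Ndufa11 had every kidney array above the intestinal arrays. Ndufb4 had levels of 6.35, 6.16 and 6.07 in kidney, 4.95, 5.17 and 5.12 in MHCIIhi and 5.49, 5.33 and 5.36 in MHCIIlo, and rose by 1.12 and 0.80 in kidney against MHCIIhi and MHCIIlo (adjusted p = 0.000258 and 0.00153). Ndufb8 had levels of 6.59, 6.34 and 6.25 in kidney, 5.29, 5.50 and 5.35 in MHCIIhi and 5.74, 5.53 and 5.52 in MHCIIlo, and rose by 1.02 and 0.80 (adjusted p = 0.00061 and 0.00201). In both subunits MHCIIhi lay below MHCIIlo by a difference that was not called. Ndufa11 had levels of 4.04, 3.79 and 3.74 in kidney, 2.65, 2.95 and 2.85 in MHCIIhi and 3.24, 3.03 and 2.86 in MHCIIlo, with differences of 1.04 and 0.81 (adjusted p = 0.000817 and 0.00277). Ndufb6 had levels of 5.13, 4.97 and 5.06 in kidney, 4.16, 4.47 and 4.09 in MHCIIhi and 4.30, 3.83 and 3.80 in MHCIIlo, with differences of 0.81 and 1.07 (adjusted p = 0.00554 and 0.000913). In all, 15 complex I genes rose in kidney against both intestinal groups and were not called between those groups, among them Ndufa4, Ndufa7, Ndufa8, Ndufa11, Ndufb2, Ndufb4, Ndufb6, Ndufb8, Ndufb11, Ndufc2 and Ndufs1. Ndufa3, Ndufa9 and Ndufs4 rose against MHCIIhi alone, and a second, dimmer probe of Ndufa3 had the opposite sign. A second Ndufs4 probe was not well above background on any array. The 2 kidney comparisons share their kidney arrays, so they are not separate evidence.

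Other complex I genes followed other orders. Ndufa1, Ndufa5, Ndufb9, Ndufb10, Ndufc1, Ndufs5 and Ndufv1, 7 in number, fell in MHCIIhi against MHCIIlo, rose in kidney against MHCIIhi and were not called between kidney and MHCIIlo. A dim probe of Ndufc1 differed by 0.02 between the intestinal groups where the chosen probe fell by 0.54. Another 4, Ndufa2, Ndufa13, Ndufb7 and Ndufs7, fell in MHCIIhi and in kidney against MHCIIlo, but quantile normalization turned the kidney difference of all except Ndufb7 to a positive value. Ndufb7, an accessory subunit imported through the intermembrane space, had levels of 6.01, 5.91 and 5.90 in kidney, 5.97, 5.91 and 6.22 in MHCIIhi and 6.96, 7.33 and 7.74 in MHCIIlo. Kidney and MHCIIhi overlapped, and MHCIIlo lay above both. MHCIIhi differed from MHCIIlo by -1.31 ± 0.22 (SE, adjusted p = 0.00241) and kidney from MHCIIlo by -1.40 ± 0.22 (SE, adjusted p = 0.000353), which after quantile normalization became -0.28 (adjusted p = 0.166). Ndufa13, also known as the cell death regulator GRIM-19, had levels of 7.71, 7.47 and 7.51 in kidney, 7.02, 7.02 and 7.34 in MHCIIhi and 7.85, 8.13 and 8.57 in MHCIIlo. It fell by 1.06 in MHCIIhi (adjusted p = 0.00543). Its kidney difference from MHCIIlo was -0.62 (adjusted p = 0.0273) and was 0.74 after quantile normalization. MHCIIlo was the highest group for both genes. The quantile values of Ndufa2 and Ndufs7 against MHCIIlo were 0.50 and 0.31. The assembly factor Ndufa12l had levels of 1.52, 1.85 and 1.79 in kidney, 1.69, 1.99 and 1.02 in MHCIIhi and 1.0, 0.10 and 0.36 in MHCIIlo, and was lowest in MHCIIlo. It rose by 1.08 in MHCIIhi (adjusted p = 0.019) and by 1.23 in kidney (adjusted p = 0.00552), each against MHCIIlo.

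Complex II links the chain to the tricarboxylic acid cycle as succinate dehydrogenase. Sdha, its flavoprotein and catalytic subunit, had levels of 4.00, 3.60 and 4.04 in kidney, 2.33, 2.74 and 2.50 in MHCIIhi and 3.03, 2.57 and 2.35 in MHCIIlo. The kidney arrays lay above the intestinal arrays, whose groups overlapped. Sdha rose 2.57-fold in kidney against MHCIIhi, by 1.36 ± 0.23 (SE, adjusted p = 0.00075) on the log2 scale, and 2.35-fold against MHCIIlo, by 1.23 ± 0.23 (SE, adjusted p = 0.00109). A second Sdha probe gave 1.04 and 0.85. Sdhb, the iron-sulphur subunit, had levels of 5.26, 5.12 and 5.14 in kidney, 4.21, 4.40 and 4.37 in MHCIIhi and 4.95, 4.64 and 4.64 in MHCIIlo. Its 3 groups did not overlap, with MHCIIhi lowest. It rose by 0.85 and 0.43 in kidney against MHCIIhi and MHCIIlo (adjusted p = 0.00152 and 0.0355). Of the membrane anchors, Sdhc rose by 0.48 against MHCIIhi (adjusted p = 0.0325) and Sdhd was not called in any comparison. No complex II gene was called between MHCIIhi and MHCIIlo by limma, and 1 of the 4 had an unadjusted p below 0.05.

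Complex III passes electrons from ubiquinol to cytochrome c. Uqcrc1, a core subunit related to processing peptidases, had levels of 5.67, 5.70 and 5.68 in kidney, 5.77, 6.05 and 6.12 in MHCIIhi and 6.84, 7.06 and 7.43 in MHCIIlo. MHCIIlo lay above the other groups, and kidney lay below MHCIIhi by a difference that was not called. It fell by 1.13 in MHCIIhi (adjusted p = 0.00276) and by 1.42 in kidney (adjusted p = 0.000162), each against MHCIIlo. A second, dimmer Uqcrc1 probe gave -0.42 and -0.19, and quantile normalization gave -0.36 for kidney against MHCIIlo (adjusted p = 0.0666). Uqcrq, a small subunit near the ubiquinone site, had levels of 7.47, 7.32 and 7.24 in kidney, 7.46, 7.62 and 7.74 in MHCIIhi and 8.20, 8.30 and 8.48 in MHCIIlo. It fell by 0.72 in MHCIIhi (adjusted p = 0.008), and in kidney it differed from MHCIIlo by -0.98 (adjusted p = 0.000536), or 0.28 after quantile normalization. Uqcrfs1, the Rieske iron-sulphur protein, had levels of 6.05, 6.18 and 6.12 in kidney, 5.42, 5.48 and 5.52 in MHCIIhi and 5.97, 5.94 and 6.03 in MHCIIlo. MHCIIhi was the lowest group, and kidney lay just above MHCIIlo. It fell by 0.51 in MHCIIhi against MHCIIlo (adjusted p = 0.0178) and rose by 0.65 in kidney against MHCIIhi (adjusted p = 0.00332). In all 7 complex III genes every MHCIIhi array lay below every MHCIIlo array, and 4 of them were called. Groups did not overlap in that direction for 32.7% of all genes tested.

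Complex IV reduces oxygen, and several of its small subunits exist as isoforms named for the tissues in which they prevail. The widest difference of the 79 tested genes between the intestinal groups was in Cox7a1, the heart and skeletal muscle isoform of subunit 7a. Cox7a1 had levels of 5.19, 4.81 and 4.47 in kidney, 4.25, 4.39 and 5.66 in MHCIIhi and 6.63, 7.05 and 7.43 in MHCIIlo. Each MHCIIlo array lay above all other arrays, and kidney and MHCIIhi overlapped. It was 4.82-fold lower in MHCIIhi than in MHCIIlo, a log2 difference of -2.27 ± 0.39 (SE, adjusted p = 0.00292), and 4.63-fold lower in kidney, a difference of -2.21 ± 0.39 (SE, adjusted p = 0.000847). MHCIIhi 3, on the slide of the MHCIIlo arrays, had the highest MHCIIhi level, and with slide as a block the difference was -1.38 (adjusted p = 0.0599). The liver-type isoform Cox7a2 had levels of 7.05, 7.02 and 6.93 in kidney, 6.48, 6.63 and 6.77 in MHCIIhi and 7.05, 7.16 and 7.15 in MHCIIlo. It fell by 0.50 in MHCIIhi against MHCIIlo (adjusted p = 0.0249) and was not called in kidney. Cox7a2l, a relative known for joining complexes III and IV, had levels of 3.85, 3.86 and 3.83 in kidney, 3.67, 4.01 and 3.73 in MHCIIhi and 3.65, 3.64 and 3.70 in MHCIIlo and was not called in any comparison.

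The probe of Cox7a1 is printed because the gene has related isoforms, and those of Atp5g1 and Atp5g2 because these genes encode the same mature protein. They are 60-base probes of the array design, in lower case, with positions from the files' mm8 annotation. The Cox7a1 probe maps to chr7:29894078-29894689 on the plus strand, a stretch of 612 bases for 60 probe bases, so that it crosses at least 1 gap in the genome. The Atp5g1 probe maps to chr11:95889700-95889759 and the Atp5g2 probe to chr15:102491047-102491106, both on the minus strand. The longest run of bases shared by the Cox7a1 and Cox7a2 probes was 6, and by the Cox7a1 and Cox7a2l probes 5. The Atp5g1 probe shared runs of at most 4 bases with the Atp5g2 probe and 8 with the Atp5g3 probe. These runs compare probes with each other, and probes can lie in different parts of their genes. Whether a probe also binds the transcript of another isoform was not tested.
Cox7a1 probe: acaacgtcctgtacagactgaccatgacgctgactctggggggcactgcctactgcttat
Atp5g1 probe: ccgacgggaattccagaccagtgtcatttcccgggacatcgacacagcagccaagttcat
Atp5g2 probe: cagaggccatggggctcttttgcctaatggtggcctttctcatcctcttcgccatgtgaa

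Muscle fibre markers were measured as a check on Cox7a1. Myh2, Ckm and Mb, which define skeletal or heart muscle, were not well above background on any array. Of 12 such markers on the array, 4 were above background on each intestinal array and 8 or 9 on the kidney arrays. Of these 12, 8 were tested, and 2 of them fell in MHCIIhi against MHCIIlo, Acta1 by 1.21 and Tnni2 by 1.30, beside 28.5% of all genes. In kidney against MHCIIhi 4 rose and 2 fell, beside 32.2% and 31.2% of all genes. The summed linear level of the list, in multiples of the array's 75th percentile, was 1.46 to 1.85 in kidney, 5.0 and 5.40 on the 2 MHCIIhi arrays with a value for every marker, and 8.69 to 14.1 in MHCIIlo. Their part in the Cox7a1 difference was not tested.

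Among the other isoform pairs the common form was well above background in all groups. Cox4i1, the ubiquitous subunit 4, had levels of 7.47, 7.34 and 7.33 in kidney, 7.15, 7.23 and 7.35 in MHCIIhi and 7.96, 8.18 and 8.38 in MHCIIlo. It fell by 0.93 in MHCIIhi against MHCIIlo (adjusted p = 0.00335). Against MHCIIlo the kidney difference was -0.79 (adjusted p = 0.00225), and quantile normalization turned it to 0.51. Cox4i2, the lung-type form, was well above background on 1 kidney array and on no intestinal array. Cox6a1 had levels of 8.98, 8.82 and 8.74 in kidney, 8.67, 8.83 and 9.05 in MHCIIhi and 9.29, 9.24 and 9.09 in MHCIIlo, and the liver-type form it encodes was not called in any comparison. The muscle form Cox6a2 had low levels of -4.18, -4.31 and -4.43 in kidney, -4.59, -4.28 and -3.81 in MHCIIhi and -3.79, -3.49 and -3.15 in MHCIIlo. MHCIIlo lay above the other groups, as it did for Cox7a1. Cox6a2 fell by 0.75 in MHCIIhi (adjusted p = 0.0318) and by 0.83 in kidney (adjusted p = 0.013), each against MHCIIlo. Slide as a random block gave -0.63 and -0.74 (adjusted p = 0.0857 and 0.0658), and as a fixed block -0.34 for the first (adjusted p = 0.459).

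Cox6b1 had levels of 3.90, 4.22 and 4.24 in kidney, 3.70, 3.99 and 3.82 in MHCIIhi and 4.33, 4.39 and 4.45 in MHCIIlo, and fell by 0.55 in MHCIIhi against MHCIIlo (adjusted p = 0.0247). The testis form Cox6b2 was lowest in kidney, with levels of 0.14, -0.34 and -0.60 in kidney, 0.19, 0.06 and 0.61 in MHCIIhi and 1.04, 1.11 and 0.35 in MHCIIlo. It fell by 1.10 in kidney against MHCIIlo (adjusted p = 0.00658). Cox7b had levels of 7.06, 6.89 and 6.78 in kidney, 6.62, 6.71 and 6.89 in MHCIIhi and 7.26, 7.40 and 7.50 in MHCIIlo, with MHCIIlo highest. It fell by 0.65 in MHCIIhi against MHCIIlo (adjusted p = 0.0124), and its kidney difference of -0.47 from MHCIIlo (adjusted p = 0.0263) turned to 0.73 after quantile normalization. Cox8a, the ubiquitous subunit 8, had levels of 7.84, 7.58 and 7.55 in kidney, 6.85, 6.98 and 7.08 in MHCIIhi and 7.29, 7.16 and 7.19 in MHCIIlo, and kidney lay above every intestinal array. It rose by 0.69 and 0.44 in kidney against MHCIIhi and MHCIIlo (adjusted p = 0.00449 and 0.0316). With slide as a random block the second of these was 0.46 (adjusted p = 0.0801).

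The muscle form Cox8b was well above background on the 3 kidney arrays and on no intestinal array, but 1 kidney array decided its level. Its levels were -1.44, -5.18 and -6.06 in kidney, -6.23, -7.36 and -6.71 in MHCIIhi and -6.61, -6.30 and -5.75 in MHCIIlo. Kidney 1 stood far above the other kidney arrays, of which kidney 3 lay within the MHCIIlo range. Against the background of the MHCIIhi arrays kidney was at least 1.74-fold higher (adjusted p = 0.0519), which was not called. On kidney 1 the proximal tubule markers summed to 435, and to 194 and 169 on kidney 2 and 3. Their part in this level was not tested. The testis form Cox8c was not well above background on any array. Cox5a, a subunit without isoforms in the list, had levels of 7.34, 7.32 and 7.24 in kidney, 7.23, 7.42 and 7.42 in MHCIIhi and 7.81, 7.58 and 7.54 in MHCIIlo and was not called in any comparison. Cox4nb had levels of 0.40, 0.06 and 0.06 in kidney, 0.86, 1.23 and 0.77 in MHCIIhi and 0.37, -0.15 and -0.12 in MHCIIlo, with MHCIIhi above the other groups. It rose by 0.92 in MHCIIhi against MHCIIlo (adjusted p = 0.00925) and fell by 0.78 in kidney against MHCIIhi (adjusted p = 0.0111), where a second probe, dim in MHCIIlo, gave 0.53.

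Complex V makes ATP with a catalytic head of alpha and beta subunits, a stalk and a membrane ring. Atp5a1, the alpha subunit, had levels of 7.30, 7.43 and 7.51 in kidney, 7.19, 7.36 and 7.15 in MHCIIhi and 7.60, 7.26 and 7.23 in MHCIIlo and was not called in any comparison. Atp5b, the catalytic beta subunit, had levels of 8.19, 8.14 and 8.05 in kidney, 7.97, 7.86 and 8.09 in MHCIIhi and 8.47, 8.64 and 8.72 in MHCIIlo, with MHCIIlo highest and the other groups overlapping. It fell by 0.64 in MHCIIhi against MHCIIlo (adjusted p = 0.0105). Its kidney difference from MHCIIlo was -0.49 (adjusted p = 0.0182) on the chosen probe, 0.58 and 0.10 on its other probes and 0.78 after quantile normalization, so its direction is not settled. Atp5o, which joins the stator stalk to the head, had levels of 7.03, 6.81 and 6.74 in kidney, 6.93, 7.07 and 7.16 in MHCIIhi and 7.73, 7.96 and 8.25 in MHCIIlo. MHCIIlo lay above the other groups, of which kidney and MHCIIhi overlapped. Atp5o fell by 0.93 in MHCIIhi (adjusted p = 0.00509). Its kidney difference from MHCIIlo was -1.12 (adjusted p = 0.000543), or 0.05 after quantile normalization. The central stalk subunits Atp5d and Atp5e fell by 0.92 and 0.74 in MHCIIhi against MHCIIlo (adjusted p = 0.00416 and 0.00658).

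The c ring of complex V is built from a single mature protein that Atp5g1, Atp5g2 and Atp5g3 each encode with a different import signal, and these genes took different orders. Atp5g1 had levels of 5.60, 5.54 and 5.55 in kidney, 4.71, 5.05 and 4.53 in MHCIIhi and 4.88, 4.22 and 4.37 in MHCIIlo. Kidney lay above the intestinal groups, which overlapped, and it rose by 0.80 and 1.07 against MHCIIhi and MHCIIlo (adjusted p = 0.0106 and 0.00184). Atp5g2 had levels of 6.20, 5.98 and 5.93 in kidney, 5.67, 5.82 and 5.58 in MHCIIhi and 5.67, 5.33 and 5.62 in MHCIIlo. Kidney lay above every intestinal array, and the rise of 0.50 against MHCIIlo was called (adjusted p = 0.0248). Atp5g3 had levels of 7.06, 7.58 and 7.69 in kidney, 7.45, 7.68 and 7.52 in MHCIIhi and 8.10, 7.97 and 8.14 in MHCIIlo, with MHCIIlo above the other groups. Its kidney difference from MHCIIlo was -0.62 (adjusted p = 0.0182), which quantile normalization turned to 0.65. No test compared these genes with each other. Atp5l, a membrane subunit, rose in kidney by 0.73 and 0.63 (adjusted p = 0.00472 and 0.00815). Atp5s, which is no subunit, had levels of 0.89, 0.89 and 0.96 in kidney, 0.03, 0.35 and 0.02 in MHCIIhi and -0.10, -0.29 and -0.47 in MHCIIlo and rose in kidney by 0.78 and 1.20 (adjusted p = 0.00345 and 0.000223).

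**Figure D2:**
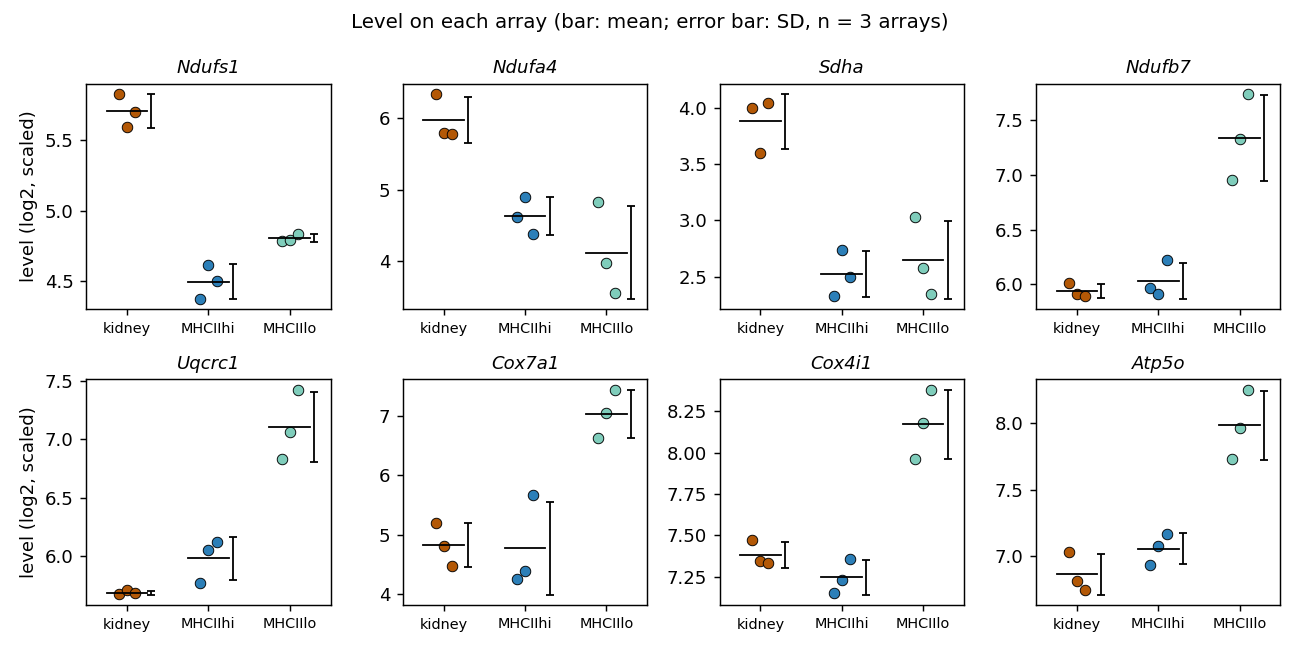
Level (log2 processed signal minus the 75th percentile, vertical axis) of 8 genes on each array, by group (horizontal axis), with the mean of 3 arrays as a bar and the SD as an error bar; each gene has its own axis. For Ndufs1, Ndufa4 and Sdha the kidney arrays lie highest, and for Ndufb7, Uqcrc1, Cox7a1, Cox4i1 and Atp5o the MHCIIlo arrays lie highest, although for Cox4i1 and Atp5o quantile normalization turns the kidney difference from MHCIIlo to 0.51 and 0.05.

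Taking the 3 comparisons together, 21 genes rose in kidney against both intestinal groups, 15 of them in complex I and 2 in complex II. A further 16 fell in MHCIIhi and, with 75th percentile scaling, in kidney, each against MHCIIlo, of which 4 belong to complex I, 2 to complex III, 4 to complex IV and 6 to complex V. Of the 18 genes that fell in kidney against MHCIIlo, quantile normalization turned 13 to a positive difference and left Cox7a1, Cox6a2 and Cox6b2 called lower. A further 10 fell in MHCIIhi against MHCIIlo and rose in kidney against MHCIIhi, among them Uqcrb of complex III and Atp5h of the complex V stalk. There were 13 genes called in no comparison.

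The balance between complexes within an array does not depend on scaling by a single factor. For each array the median deviation of complex V genes from their own means over the 9 arrays was subtracted from that of complex I genes. The result was 0.42, 0.34 and 0.38 on the kidney arrays, -0.05, 0.00 and -0.14 in MHCIIhi and -0.25, -0.38 and -0.54 in MHCIIlo. The 3 groups did not overlap, with complex I highest relative to complex V in kidney and lowest in MHCIIlo. After quantile normalization, which also changes the spread of each array, the values were 0.22, 0.16 and 0.06 in kidney, 0.07, 0.05 and -0.05 in MHCIIhi and -0.24, -0.25 and -0.37 in MHCIIlo, so that kidney and MHCIIhi overlapped. No p is given for a score over genes chosen with the results known.

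**Figure D3:**
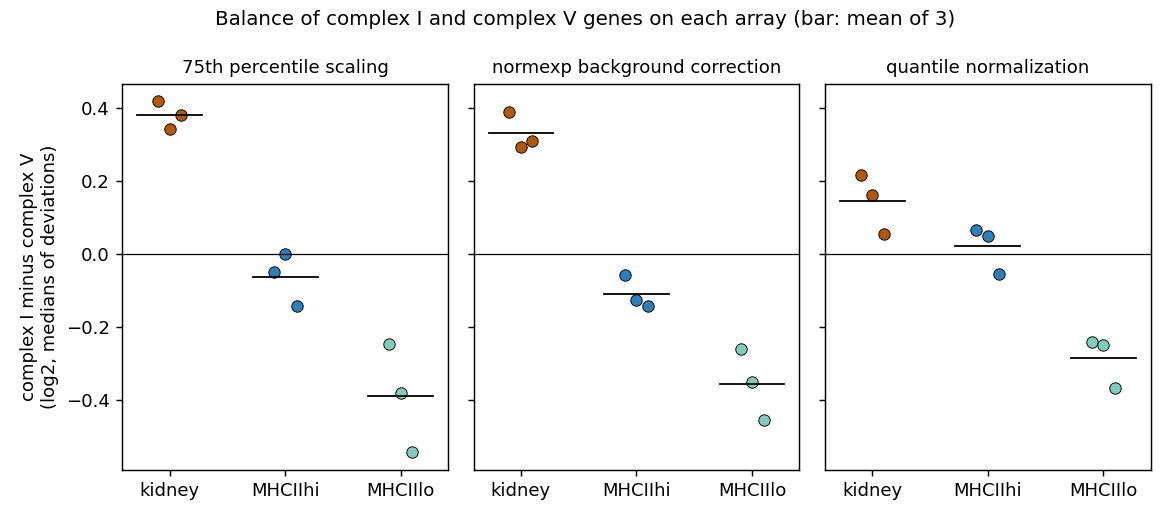
Median deviation of complex I genes minus that of complex V genes (log2, vertical axis) on each array by group (horizontal axis), under 3 ways of processing; each point is an array and each bar the mean of 3. Kidney lies at 0.34 to 0.42 and MHCIIlo at -0.54 to -0.25 with 75th percentile scaling, and kidney at 0.06 to 0.22 overlaps MHCIIhi after quantile normalization.

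The brightness of the probes moved with these differences. The median probe level was 5.30 for complex I, 4.50 for II, 6.26 for III, 6.23 for IV and 6.78 for V, and these values order the probes, not the genes' expression. Across the 79 genes, Spearman's rho between mean level and difference was -0.32 in kidney minus MHCIIhi, -0.54 in kidney minus MHCIIlo and -0.49 in MHCIIhi minus MHCIIlo. It was -0.30, -0.26 and 0.07 across all genes tested, and all points share the same arrays and scaling. After quantile normalization the members' rho was 0.21, -0.25 and -0.53 in the same order. Among genes with a mean level from 5 to 7, the complex I median exceeded that of complex V by 0.31, 0.33 and 0.11 in the 3 comparisons (22 and 8 genes), in place of 0.42, 0.73 and 0.24 over all levels. The part of brightness in the difference between complexes was not tested further.

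The oxidative phosphorylation genes were also set beside all genes of like brightness. Brightness is the mean over 9 arrays, 6 of them intestinal, so the bright ranges favour genes that are high in intestine. Among genes at a mean level of 5 to 6, 12 of 21 members rose in kidney against MHCIIhi, while 16.7% of the 276 genes in that range rose and 66.7% fell. The medians were 0.65 for the members and -1.0 for all genes in the range. At a level of 7 and above, 2 of 16 members rose, beside 6.59% of 91 genes, and the medians were 0.16 and -1.18. Against MHCIIlo at a level of 7 and above, 1 of 16 members rose and 8 fell, beside 2.2% and 78% of the 91 genes, with medians of -0.42 and -0.94. The genes in each range include the members, and no range was tested against another.

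**Figure D4:**
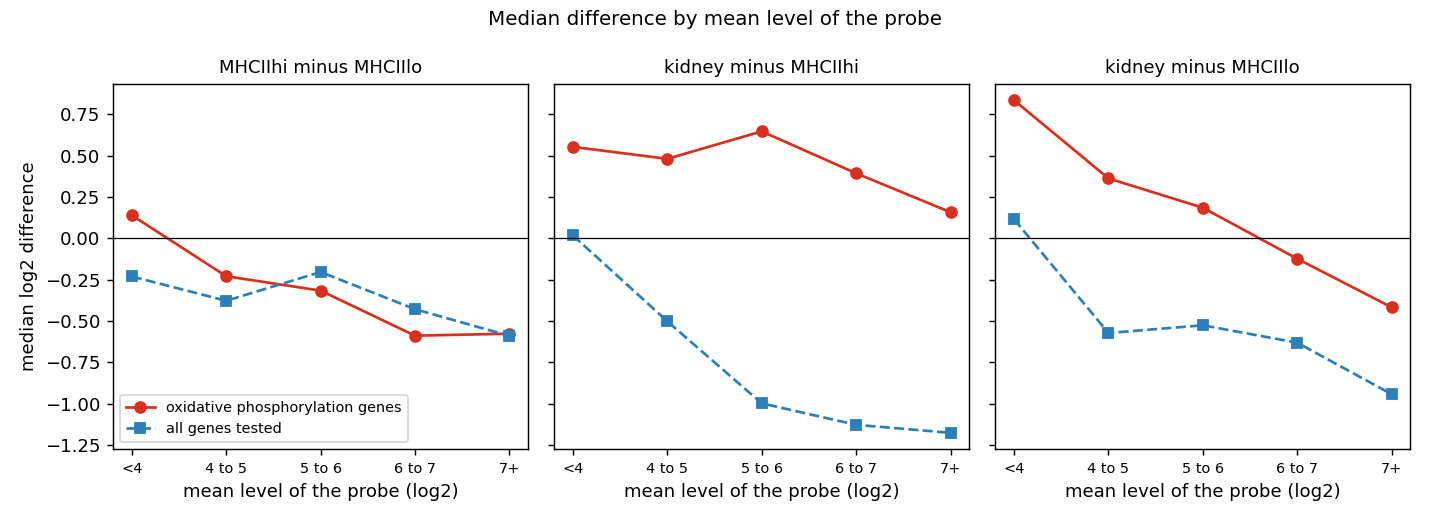
Median log2 difference (vertical axis) of the oxidative phosphorylation genes (red circles, 12 to 21 genes per range) and of all genes tested (blue squares) by mean level of the probe over the 9 arrays (horizontal axis, log2) in the 3 comparisons. In kidney minus MHCIIhi the members lie at 0.16 to 0.65 in every range while all genes fall to -1.18 at the brightest, and in MHCIIhi minus MHCIIlo both lie near -0.58 at the brightest.

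Promoters of 4 genes are printed as examples of the main orders: Ndufa11 and Ndufb4 rose in kidney against both intestinal groups, Atp5k fell in MHCIIhi, and Cox7a1 differed most between the intestinal groups. The examples were picked by hand and do not stand for how often their groups hold the letters marked below. Each window runs from 250 bases before to 30 bases after the RefSeq start (GRCm38.p6), 280 bases in the direction of the gene. Ndufa11 is at chr17:56717512-56717791 (plus strand), Ndufb4 at chr16:37654339-37654618 (minus), Atp5k at chr5:108434370-108434649 (minus) and Cox7a1 at chr7:30183921-30184200 (plus). Capitals mark matches, on either strand, to GCATGCGC (the core recognised by NRF1), CCGGAAGT (GABPA), AAGATGGCG (YY1) or AAGGTCA (oestrogen-related receptors), factors known to act on respiratory genes.
Ndufa11 promoter: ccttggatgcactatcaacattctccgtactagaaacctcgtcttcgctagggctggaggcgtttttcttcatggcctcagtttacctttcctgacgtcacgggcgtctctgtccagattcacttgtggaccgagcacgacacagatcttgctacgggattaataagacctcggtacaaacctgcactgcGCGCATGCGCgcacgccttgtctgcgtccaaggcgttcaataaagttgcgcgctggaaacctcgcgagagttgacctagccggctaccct
Ndufb4 promoter: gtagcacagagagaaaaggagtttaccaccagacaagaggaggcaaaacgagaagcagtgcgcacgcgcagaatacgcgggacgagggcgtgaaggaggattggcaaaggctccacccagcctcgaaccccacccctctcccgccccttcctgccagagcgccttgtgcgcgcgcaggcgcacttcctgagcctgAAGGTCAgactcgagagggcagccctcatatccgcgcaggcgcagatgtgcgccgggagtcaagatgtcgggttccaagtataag
Atp5k promoter: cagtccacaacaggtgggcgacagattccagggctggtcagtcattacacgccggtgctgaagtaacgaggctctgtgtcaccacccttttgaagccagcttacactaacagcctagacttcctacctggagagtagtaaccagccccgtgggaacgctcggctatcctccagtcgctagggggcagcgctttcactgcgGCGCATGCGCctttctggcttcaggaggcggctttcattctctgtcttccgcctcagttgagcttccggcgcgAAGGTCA
Cox7a1 promoter: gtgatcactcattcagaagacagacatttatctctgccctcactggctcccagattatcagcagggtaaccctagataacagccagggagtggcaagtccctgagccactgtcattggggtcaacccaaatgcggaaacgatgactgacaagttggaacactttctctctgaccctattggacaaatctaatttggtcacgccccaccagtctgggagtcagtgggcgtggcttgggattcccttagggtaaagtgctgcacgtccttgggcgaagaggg

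In Ndufa11 and Atp5k the capitals at 60 and 50 bases before the start are overlapping matches to the NRF1 letters on both strands. Ndufb4 holds the receptor letters 55 bases before the start, and Atp5k holds them from base 24 after it. The Cox7a1 window holds none of the 4. Promoter windows were at hand for 66 of the 81 genes. The NRF1 letters were in 9 of these (13.6%) and in 2.92% of 27025 genes of all kinds in the promoter table. The receptor letters were in 6 (9.09%, against 5.1% of all), the GABPA letters in 5 (7.58%, against 4.12%) and the YY1 letters in 1 (1.52%, against 1.22%). Of genes that rose in kidney against MHCIIhi 4 of 31 held the NRF1 letters, Ndufa11 among them. Of genes that fell in MHCIIhi against MHCIIlo 1 of 26 did, and that gene is the printed Atp5k. A match is a description of the letters and not a binding site.

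These factors and other regulators of mitochondrial biogenesis were measured too. Among 24 regulators, 6 rose and 10 fell in MHCIIhi against MHCIIlo, beside 21.6% and 28.5% of all genes. In kidney, 3 rose and 7 fell against MHCIIhi, beside 32.2% and 31.2%, and 10 rose and 10 fell against MHCIIlo, beside 36.9% and 35.5%. Ppargc1a, a coactivator of respiratory genes, had levels of 3.46, 3.44 and 3.80 in kidney, 1.68, 0.82 and 2.81 in MHCIIhi and 2.70, 4.22 and 4.18 in MHCIIlo. MHCIIhi 3 overlapped MHCIIlo, and the other MHCIIhi arrays lay below all else. The difference of MHCIIhi from MHCIIlo was -1.93 ± 0.54 (SE, adjusted p = 0.0184), and kidney rose by 1.79 against MHCIIhi (adjusted p = 0.0169). Its relative Pprc1 had levels of 0.06, -0.21 and -0.40 in kidney, 2.20, 2.25 and 1.48 in MHCIIhi and -0.85, -2.21 and -1.94 in MHCIIlo, highest in MHCIIhi. Its rise in MHCIIhi against MHCIIlo was 3.64 ± 0.37 (SE, adjusted p = 0.000337). Tfam, which packages and transcribes mitochondrial DNA, had levels of 5.14, 5.18 and 5.01 in kidney, 7.06, 6.58 and 7.79 in MHCIIhi and 7.97, 8.64 and 8.91 in MHCIIlo. It fell by 1.36 in MHCIIhi (adjusted p = 0.0113) and by 3.39 in kidney (adjusted p = 2.24e-05), each against MHCIIlo. Esrra fell by 1.09 in MHCIIhi (adjusted p = 0.00347), and Nrf1 by 2.25 in kidney (adjusted p = 3.39e-05), against MHCIIlo. Esrrb, an oestrogen-related receptor, and Perm1, a regulator known from muscle, were well above background on the kidney arrays alone, and were at least 54.9 and 15.3 times their MHCIIlo background (adjusted p = 7.44e-08 and 2.81e-06).

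Assembly factors, which build the complexes and are no subunits, were more often higher than lower in MHCIIhi. Of 40 tested, 15 rose and 8 fell in MHCIIhi against MHCIIlo, beside 21.6% and 28.5% of all genes. Their median was 0.25, beside -0.24 for all genes and -0.39 for the 79 oxidative phosphorylation genes. The median of the 79 became -0.11 after normexp and 0.01 after quantile normalization, beside -0.50 and -0.07 for all genes. All values of the assembly factors are from the main scaling. Their change under other scalings, or beside genes of like brightness, was not tested. Bcs1l, which inserts the Rieske protein, rose by 1.94 ± 0.35 (SE, adjusted p = 0.00354), and Lrpprc, which stabilises mitochondrial transcripts, by 1.66 ± 0.32 (SE, adjusted p = 0.00435). Cox17, a copper chaperone of complex IV, differed by -1.36 ± 0.30 (SE, adjusted p = 0.00753). In kidney against MHCIIhi 10 rose and 5 fell, beside 32.2% and 31.2% of all genes. Among them were Nubpl, a complex I factor, at 1.10 and Cox17 at -1.45 (adjusted p = 0.00471 and 0.00245). In kidney against MHCIIlo 21 rose and 10 fell, beside 36.9% and 35.5% of all genes.

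Of 13 subunits encoded by mitochondrial DNA, none had a probe under its standard name, and 3 probes with older names were read, chosen after the files were seen. CYTB, the cytochrome b of complex III, had levels of 8.63, 8.82 and 8.62 in kidney, 8.95, 8.82 and 9.63 in MHCIIhi and 9.61, 10.42 and 10.50 in MHCIIlo. It differed by -1.04 ± 0.29 (SE, adjusted p = 0.019) in MHCIIhi and by -1.49 ± 0.29 (SE, adjusted p = 0.00156) in kidney, each against MHCIIlo. ND4L of complex I had levels of 7.62, 7.72 and 7.60 in kidney, 7.67, 7.55 and 8.41 in MHCIIhi and 8.37, 9.15 and 9.36 in MHCIIlo, and differed by -1.08 and -1.32 against MHCIIlo (adjusted p = 0.019 and 0.00392). MHCIIlo 2 and 3 stood highest for both, and MHCIIhi 3 lay just above MHCIIlo 1. A probe named COX2 is annotated to a copy on chromosome 1 and its source is uncertain, and it differed by -1.24 in MHCIIhi and -2.16 in kidney against MHCIIlo. In kidney ND4L differed from MHCIIhi by -0.23 (adjusted p = 0.531), where 25 of 36 nuclear complex I genes rose. All values of these 3 probes are from the main scaling, and their change under quantile normalization or normexp was not tested. In kidney against MHCIIlo, the median of the 16 nuclear genes at a mean level of 7 and above was -0.42. Quantile normalization turned that median to 0.82, so the kidney differences of these probes may depend on the scaling.

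Many genes of the pathways that feed the chain rose in kidney against MHCIIhi, where 32.2% of all genes rose and 31.2% fell. Of 24 genes of pyruvate dehydrogenase and the tricarboxylic acid cycle, 15 rose and 1 fell, with a median of 0.65 beside -0.02 for all genes. Pdk4, a kinase that shuts pyruvate dehydrogenase, rose by 4.08 ± 0.63 (SE, adjusted p = 0.000438), and Idh2, a mitochondrial isocitrate dehydrogenase, by 2.80 ± 0.26 (SE, adjusted p = 1.77e-05), while Cs, citrate synthase, fell by 0.74 (adjusted p = 0.0223). Of 19 genes of fatty acid oxidation 12 rose and 2 fell, including Cpt1b, the carnitine transferase typical of muscle, at 3.37, and Hadh, which oxidises hydroxyacyl-CoA, at -1.16 (adjusted p = 4.05e-05 and 0.00112). Of 22 glycolytic genes 13 rose and 4 fell. Ldhb, the lactate dehydrogenase of oxidative tissue, was well above background on 2 of 3 arrays of each intestinal group and had levels of 8.38, 8.37 and 8.46 in kidney, -3.03, -2.91 and -4.33 in MHCIIhi and -3.65, -4.10 and -1.59 in MHCIIlo (adjusted p = 6.51e-07 against MHCIIhi). Ldha, the other common form, fell by 1.68 (adjusted p = 0.000155). Hk2, a hexokinase well above background on 2 of 3 kidney arrays, had levels of -5.99, -5.30 and -5.12 in kidney and 3.19, 2.55 and 2.13 in MHCIIhi (adjusted p = 1.23e-06). Slc25a4, the ADP/ATP carrier of muscle and heart, rose by 3.17 ± 0.22 (SE, adjusted p = 3.04e-06). Of 23 carriers and exchangers 8 rose and 2 fell, so the share that rose was near that of all genes.

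In kidney against MHCIIlo the counts were 14 higher and 6 lower for the pyruvate dehydrogenase and tricarboxylic acid cycle genes, 8 and 5 for fatty acid oxidation, 10 and 9 for glycolysis and 6 and 8 for the carriers, beside 36.9% and 35.5% of all genes. In MHCIIhi against MHCIIlo, where 28.5% of all genes fell and 21.6% rose, 12 of 22 glycolytic genes fell. Among them were the phosphofructokinase Pfkp by 2.14 and the pyruvate kinase Pklr by 2.02 (adjusted p = 0.000613 and 0.00325). There 8 of 19 genes of fatty acid oxidation fell and 1 rose. Cs fell by 1.31, Pcx, pyruvate carboxylase, by 1.79 and Ckmt1, the mitochondrial creatine kinase, by 1.80 (adjusted p = 0.00351, 0.00557 and 0.00249).

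**Figure D5:**
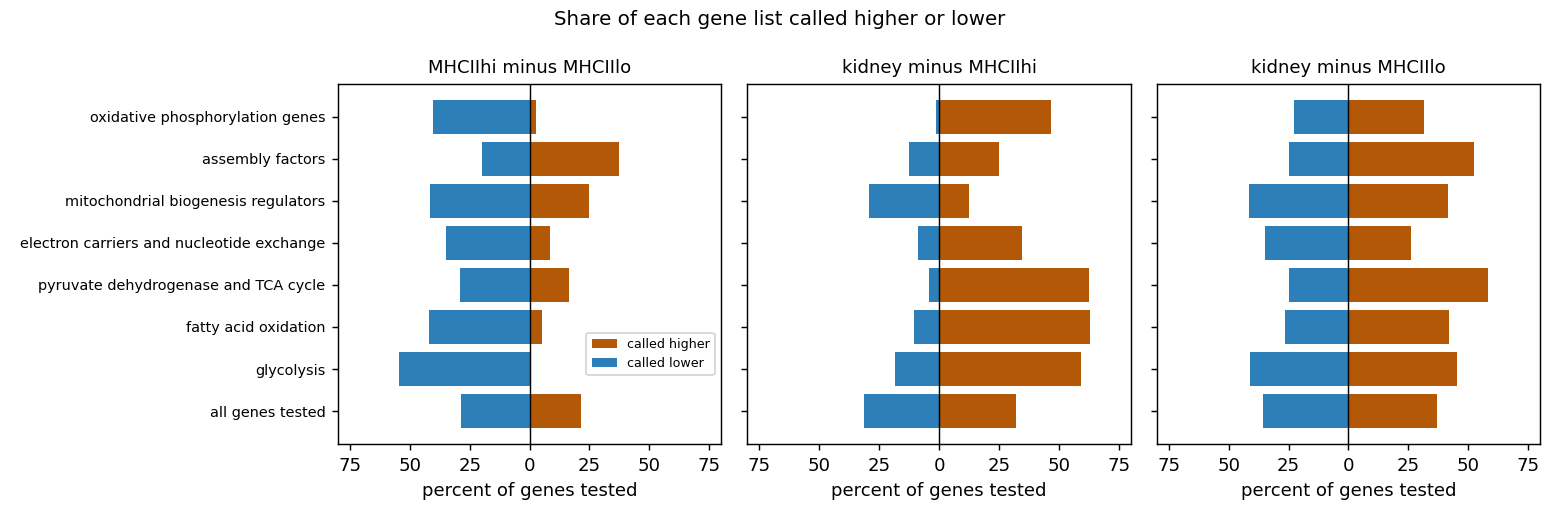
Percent of the tested genes of each list called higher (right, brown) or lower (left, blue) in the 3 comparisons (horizontal axis), with all genes tested as the last row. Among the oxidative phosphorylation genes 37 of 79 rose in kidney minus MHCIIhi and 32 of 79 fell in MHCIIhi minus MHCIIlo, and assembly factors have more higher than lower calls in each comparison; after quantile normalization 68 of the 79 rise in kidney minus MHCIIlo.

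Markers of cell types moved with the groups, while 21.6% of all genes rose and 28.5% fell in MHCIIhi against MHCIIlo. In MHCIIhi against MHCIIlo, 13 of 15 enterocyte markers fell and their summed level was 1081 to 2487 against 3600 to 5394. Of 12 markers of crypt and dividing cells 11 rose, with sums of 82.3 to 162 against 11.5 to 21.5. Of 13 lymphocyte and plasma cell markers 10 fell, with sums of 2.43 to 5.14 against 26.9 to 46.0. Of 11 tested markers of fibroblasts, muscle and endothelium 6 fell, with sums of 28.1 to 33.3 against 49.2 to 69.3, and Pdgfra, Pecam1, Cdh5 and Kdr were not above background in either group. Of 7 tested macrophage and dendritic cell markers 2 rose and 3 fell, with sums of 98.8 to 173 against 15.7 to 51.3. A linear sum follows the brightest probes of a list, and the median difference of these 7 was -0.65, beside -0.24 for all genes. Their part in the lower subunit transcripts of MHCIIhi was not tested.

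In the kidney arrays the 9 markers of the thick ascending limb and distal tubule summed to 1177 to 1422, the 11 collecting duct markers to 398 to 445 and the 10 proximal tubule markers to 169 to 435. The endothelial markers Pecam1, Cdh5 and Kdr were well above background on the kidney arrays alone, and Kdr was 2.46, 3.61 and 3.23 there. The fibroblast, muscle and endothelial list summed to 24.0 to 41.4 in kidney, and the lymphocyte list to 1.74 to 2.31. How much each cell type gave to the kidney differences was not tested.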

How the data were processed

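Values are fluorescence intensity from single-colour Agilent 4x44K arrays. Per the file headers, Feature Extraction 10.5.1.1 made the deposited processed signal, a background-corrected intensity per spot, with probe positions on mm8. The series' value table also holds an intensity per probe, which matched the processed signal over its median on each array within a relative deviation of 2.37e-05. The authors' steps for it are not given in these sources. Per the labels' protocols, Trizol was used for other tissues, and RNA was otherwise extracted by Miltenyi, who also labelled it.

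Control spots and outlier spots were left out, spots of a probe were averaged, and 0 spots were saturated. Each array was scaled to its 75th percentile over non-control probes, and log2 was taken. The filter on dim probes kept those that every array of 1 or more groups measured well above background. Of 41174 probes, 24375 were named through RefSeq accessions and the others kept the file's name. Each gene was read from its brightest probe, and 19971 genes were tested. limma 3.58.1 (R 4.3.3) fitted the 3 groups over the 9 arrays with lmFit and eBayes, and p-values were adjusted over all genes after Benjamini and Hochberg. The labels give the mice pooled per replicate but not whether replicates were sorted on separate occasions, so p-values measure the spread between these samples. The number of arrays limits precision. The procedure was tested on simulated data. Promoters came from the RefSeq table (GRCm38.p6).

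Genes named with their levels were, per comparison and direction, the 6 called members with the widest difference among those above background on at least 2 of 3 arrays of both groups, plus the isoform families and a core set of subunits. From each related list up to 4 called genes per direction were eligible. Sdhc, Atp5d, Atp5e, Atp5l, Esrrb, Perm1 and the genes of the printed promoters were chosen after their values were seen. The members and lists were chosen with earlier results of these data known. Alternatives tried were other background corrections, scalings, filters, probe rules and thresholds, slide and replicate number as blocks, and leaving out each array.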

Additional observations from a re-analysis of the deposited data

How the results depend on the processing

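Kidney and slide cannot be told apart, and MHCIIhi has 1 array on the slide of MHCIIlo. In kidney against MHCIIhi the direction of the median and of all member calls held under every scaling tried, but the number of calls did not. In kidney against MHCIIlo the balance of calls depended on the scaling, and in MHCIIhi against MHCIIlo on the scaling and on single arrays. The 3 arrays per group limit small differences, and probes of several genes disagree.

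Counts of higher and lower calls in MHCIIhi against MHCIIlo, 2 and 32 in the text, were 8 and 17 after normexp, 9 and 14 after quantile normalization, 1 and 4 with an added log2 difference of at least 1, and 1 and 12 at an adjusted p below 0.01. The shares of all genes were 15.6% and 50.8%, 22.6% and 22.6%, 14.9% and 16.1%, and 13.7% and 10.5% in the same order. With slide as a random block 1 was higher and 23 lower, beside 17.4% and 17.7% of all genes. With slide as a fixed block limma called 0 and 0, with 1 and 20 at an unadjusted p below 0.05. That fit called 7.07% of all genes higher and 1.79% lower. Leaving out each array gave 1 to 6 higher and 14 to 33 lower, with a median of -0.42 to -0.35. The shares of all genes then ran from 16.1% to 23.3% higher and from 14.7% to 34.9% lower. The median was -0.11 after normexp and 0.011 after quantile normalization.

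In kidney against MHCIIhi, 37 genes were higher in the text, 70 after quantile normalization, 23 at an adjusted p below 0.01, 6 with a log2 difference of at least 1, and 26 to 34 when each array was left out. Of all genes, 32.2% were higher in the text, 32.7% after quantile normalization, 25.9% at the stricter threshold and 25.6% with the added log2 difference. When each array was left out, 28.5% to 31.9% of all genes were higher. The 1 lower gene became 2 after normexp or without the filter on dim probes. It became 0 at an adjusted p below 0.01 or with a log2 difference of at least 1. With the mean of a gene's probes limma called 0 lower, with 0 at an unadjusted p below 0.05, and 1 lower call remained whichever array was left out. The median of 0.43 became 0.59 after normexp, 1.12 after quantile normalization and 0.63 when arrays were scaled to the median of probes above background on all arrays, with 0.39 to 0.46 when each array was left out.

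In kidney against MHCIIlo, 25 and 18 in the text became 45 and 7 after normexp and 68 and 3 after quantile normalization. The counts were 8 and 5 with a log2 difference of at least 1, with 11 lower at an adjusted p below 0.01. The shares of all genes were 24.5% and 53.3%, 40% and 34.1%, and 29.8% and 27.9% in the same order. At an adjusted p below 0.01, 30.2% of all genes were lower. Leaving out each array gave 21 to 25 higher and 14 to 19 lower. The median of 0.09 became 0.51, 1.11 and 0.29 under normexp, quantile normalization and scaling to the median of probes above background, with 0.05 to 0.13 when each array was left out.

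The median of all genes shifted with the scaling. In MHCIIhi minus MHCIIlo, kidney minus MHCIIhi and kidney minus MHCIIlo it was -0.50, -0.34 and -0.59 after normexp and -0.07, -0.03 and 0.18 after quantile normalization. Relative to it the members' median was 0.38, 0.93 and 1.10 after normexp and 0.08, 1.14 and 0.93 after quantile normalization, in place of -0.16, 0.45 and 0.06.

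Single genes changed sign in kidney against MHCIIlo after quantile normalization: Cox4i1 (0.51), Atp5e (0.50), Atp5d (0.21), Ndufa13 (0.74), Ndufa2 (0.50), Atp5j2 (0.50), Atp5o (0.049), Uqcrq (0.28), Atp5b (0.78), Cox7b (0.73), Ndufs7 (0.31), Atp5k (0.36) and Atp5g3 (0.65). Atp5b was 0.0017 after normexp. With the mean of a gene's probes Atp5b was 0.066 and Ndufs1 -0.59 in that comparison, and Ndufs4 was -0.28 in kidney against MHCIIhi. The cause of these changes was not tested.

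With replicate number as a replicate block the calls were 2 higher and 29 lower in MHCIIhi against MHCIIlo, 30 and 1 in kidney against MHCIIhi and 22 and 17 in kidney against MHCIIlo. The shares of all genes were 20.7% and 26.8%, 31.4% and 30.3%, and 36.3% and 34.9% in the same order. Same-numbered arrays did not deviate together (r = 0.19, -0.35 and 0.28 between the intestinal groups), and the labels give the numbers no further meaning.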
